A study of Mus musculus with 6 samples.

Results

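*Slpi* and the *Wfdc* genes, which encode small secreted proteins built from the whey acidic protein (WAP) domain, were followed in primary tumors grown in mice of 2 genotypes, 3 tumors from wild-type (WT) hosts and 3 from *Tgm2* knockout hosts. The genes were chosen by symbol, as *Slpi* and every symbol made of Wfdc and a number, which gave 15 of the 20076 genes in the deposited table. *Slpi* itself had been selected on its difference between these same groups, so its values are given as a description without a test, whereas the 14 *Wfdc* genes were taken by name whatever their values. All 15 had at least 1 normalized count in at least 3 tumors and entered the model fitted across 19667 genes. *Wfdc5*, *Wfdc9*, *Wfdc11* and *Wfdc15a*, which are among the 18 *Wfdc* genes of the GENCODE M21 annotation, have no row in the table and were not analysed here.

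The injected cells were the ID8 *Trp53-/- Brca1-/-* line, a C57BL/6 mouse model of ovarian cancer in which both tumor suppressors were knocked out with CRISPR-Cas9. They were placed under the bursa of both ovaries, and the tumors were collected 6 weeks later. The hosts were C57BL/6 WT mice or *Tgm2* knockout mice, both bred in-house and 6 to 10 weeks old when used. *Tgm2* encodes the crosslinking enzyme transglutaminase 2 (TG2). The knockout is in the host, and the same cancer cells with their own *Tgm2* were given to both genotypes. The exons removed in the knockout allele and its backcross history are not given in the sources used here, nor is it stated how many tumors came from each mouse, so the spread between tumors of a group may not be the spread between animals. RNA was enriched for polyA transcripts and sequenced, and the authors deposited gene values scaled for depth, called normalized counts here, where 1 read was worth about 0.95, 1.04 and 1.02 in WT hosts and 0.95, 0.98 and 1.08 in knockout hosts. The values summed to between 32316613 and 37717165 per tumor, so a value of a few normalized counts rests on a few reads. Below, the values of a group are listed in the order of its tumor numbers, 1 to 3.

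Secretory leukocyte protease inhibitor (SLPI), the product of *Slpi*, is released by epithelial cells of mucosal surfaces and by neutrophils and macrophages. It blocks neutrophil elastase and cathepsin G, is antimicrobial, and dampens NF-kB signaling in myeloid cells. Its relatives share the WAP domain, a compact fold held together by disulfide bonds, although not all of them are known to inhibit proteases. WFDC2, also called HE4, is a secreted product of reproductive tract and airway epithelium and a serum marker of human ovarian cancer. Many other genes of the family in the mouse are known from the epididymis and testis, and *Wfdc17*, *Wfdc18* and *Wfdc21* form a separate group of which *Wfdc17* is known from activated macrophages.

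*Slpi* and 10 *Wfdc* genes lie in a cluster on chromosome 2 (GRCm38, 164189231 to 164745931), on the same chromosome as *Tgm2*, whose end is 6.21 Mb from *Slpi*. The sequence upstream of the start was available from RefSeq (GRCm38.p6) for 12 of the 15 genes. It is shown for the pair described most closely below, *Slpi* and *Wfdc2*, members of 1 cluster with different patterns across the tumors. Their annotated start coordinates are 208 kb apart with other genes between them, and the part of the sequences in these patterns was not tested. The 250 bases before the start of *Slpi* (chr2:164356508-164356757, minus strand) and of *Wfdc2* (chr2:164562465-164562714, plus strand) are written 5′ to 3′, with motif matches in capitals.
Slpi: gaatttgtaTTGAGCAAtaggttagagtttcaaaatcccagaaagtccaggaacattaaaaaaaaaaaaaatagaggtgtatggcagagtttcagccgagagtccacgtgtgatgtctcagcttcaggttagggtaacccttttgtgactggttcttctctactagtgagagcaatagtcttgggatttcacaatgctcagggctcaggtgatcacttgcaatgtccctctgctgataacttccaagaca
Wfdc2: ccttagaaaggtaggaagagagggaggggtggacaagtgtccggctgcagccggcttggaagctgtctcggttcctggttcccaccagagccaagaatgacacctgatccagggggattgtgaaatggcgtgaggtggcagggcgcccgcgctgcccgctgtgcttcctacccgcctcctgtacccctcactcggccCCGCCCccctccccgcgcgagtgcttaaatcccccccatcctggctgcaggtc
The *Slpi* window held 42.0% G and C and 1 match to the C/EBP motif TTGCNNAA on the opposite strand, starting 241 bases before the start. The *Wfdc2* window held 64.8% G and C and 1 match to the GC box GGGCGG, on the opposite strand, 53 bases before the start, against a median of 52.4% G and C over 32851 mouse promoter windows. On either strand, the C/EBP letters were present in 9.56% of these windows, the GC box in 32.7%, a TATA box (TATAAA) in 12.4%, an AP-1 motif (TGANTCA) in 6.75% and the kappaB motif in 7.25%. The last 3 had no match in either window. Among the other members with a window, the C/EBP letters occurred in *Wfdc12* and *Wfdc6a* and TATAAA in *Wfdc8* and *Wfdc18*, and all of these matches are listed as a description only.

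The label of the hosts was checked first through *Tgm2* (chromosome 2, 158116402 to 158146436, minus strand), which measured 14978, 12155 and 13180 in WT hosts and 5853, 6071 and 8157 in knockout hosts, in normalized counts. The groups did not overlap, with the knockout tumors lower, but the log2 fold change of -1.02 (SE 0.22) did not pass adjustment over all genes (limma, adjusted p = 0.391). The labelled tissue was checked with 8 ovarian surface and mesothelial markers, genes of the cell layer from which ID8 cells derive. The host ovary has the same surface layer, so these markers cannot tell tumor cells from host tissue. *Wt1*, *Krt8* and *Krt19* were the most abundant, with lowest values of 13131, 10373 and 11260 in any tumor, and no marker of this list was at 0 in any tumor.

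Single tumors stood apart in tissue markers, and these values are needed beside the results. Secretory epithelium markers of the reproductive tract (11 genes, led by *Ovgp1*, the oviduct glycoprotein) summed to 6313, 12871 and 55034 normalized counts in WT hosts and to 47965, 64176 and 2708 in knockout hosts. WT tumor 3 was the highest in *Epcam*, at 8047 against 90.5 to 1307 in the other tumors. Knockout tumors 1 and 2 were the highest in *Ovgp1*, at 37108 and 55944, and in *Foxj1*, the regulator of motile cilia, at 1135 and 1938 against 20.8 to 228 elsewhere. Knockout tumor 1 was the highest in *Hsd3b1*, a steroid hormone enzyme, at 25704 against 5526 in WT tumor 1 and 1.07 to 68.1 in the others. Knockout tumor 2 had the highest sum of white adipocyte markers, at 161362 against 30163 to 93521 in the others.

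*Slpi* separated the genotypes, with each of the 3 knockout tumors above all 3 WT tumors. Its normalized counts were 515, 367 and 340.0 in WT hosts, and 3607, 5989 and 6720.1 in knockout hosts. The groups were far apart, since the lowest knockout tumor held 7.01 times the value of the highest WT tumor, while the highest and lowest tumors differed by 1.51-fold within the WT group and 1.86-fold within the knockout group. The WT mean was 407 ± 94.1 and the knockout mean 5439 ± 1628 (SD, n = 3 tumors per group), a ratio of 13.4, with a log2 fold change of 3.71 (SE 0.29). Leaving out each tumor in turn moved the log2 fold change between 3.53, without knockout tumor 3, and 3.98, without knockout tumor 1. In bulk tumor RNA, more cells that express *Slpi* and more *Slpi* RNA per cell cannot be told apart. In the GENCODE annotation the gene span of *Slpi* (164354070 to 164389095) also holds at least part of the microRNA gene *Mir7678*. The basic set of *Slpi* transcripts covers only 164354070 to 164356507, and whether *Mir7678* touches these was not examined. The strand of the libraries is not given, so reads from any overlapping transcripts were not separated.

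Across the table, 20 genes were called higher in knockout tumors, at an adjusted p under 0.05 in limma and an absolute log2 fold change over 1, which is 0.102% of the genes tested. *Slpi* was selected as 1 of these 20, so its own place among them is not a result. No gene was called lower (0%), while 491 genes were higher and 305 lower at an unadjusted p under 0.05 with the same fold limit. The number called higher depended on single tumors, and was 2 without WT tumor 2, 7 without WT tumor 1, 11 without knockout tumor 2, 13 without WT tumor 3 or knockout tumor 1 and 15 without knockout tumor 3. Of these, 2, 7, 10, 12, 13 and 11 were among the 20, in the order of WT tumors 2 and 1, knockout tumor 2, WT tumor 3 and knockout tumors 1 and 3. By fold change *Slpi* stood at rank 17 of the 20, of which 13 were immunoglobulin genes. The other genes without an immunoglobulin name were *Jchain*, *Mzb1*, *Pou2af1* and *Cd79a*, known from B cells and plasma cells, *Lep*, the adipocyte hormone leptin, and *Ahcyl*. These were named after the values were seen. The called gene nearest the limit on the adjusted p was *Ighj4* at 0.0490, and the first beyond it was *Ighg1* at 0.0657.

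**Figure D1:**
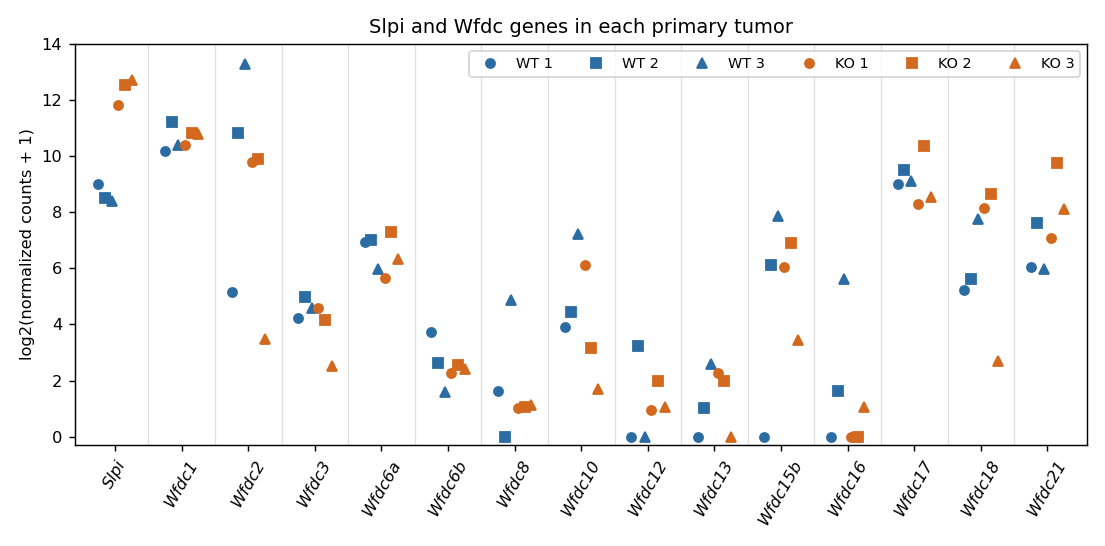
Level of each of the 15 genes in each primary tumor, as log2(normalized counts + 1) on the vertical axis, with WT tumors 1 to 3 in blue and *Tgm2* knockout (KO) tumors 1 to 3 in orange, 1 symbol per tumor. *Slpi* is the 1 gene whose groups are apart (340.0 to 515 against 3607 to 6720.1 normalized counts), and *Wfdc2* has the widest spread among the abundant genes, from 10.3 to 9951.

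None of the 14 *Wfdc* genes showed the pattern of *Slpi*. In limma 0 were called higher, against 0.102% of all genes, and 0 were called lower, and the lowest adjusted p was 0.825. At an unadjusted p under 0.05 there was 1, *Wfdc21*. The knockout and WT tumors did not separate in any of the 14, beside 10.5% of all genes tested. A list of 14 genes is too short to tell 0 from either of these shares. By fitted means 6 were higher and 8 were lower in knockout tumors, with a median log2 fold change of -0.18 beside -0.03 over all genes. Of the 14 genes, 8 had a value over 100 in at least 1 tumor, and 6 stayed at or below 50 in every tumor, where only a large difference could be detected at this depth.

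*Wfdc2* (chromosome 2, 164562413 to 164568510, plus strand) had the highest value of the 15 genes and the widest spread among the abundant members. It measured 34.4, 1831 and 9951 normalized counts in WT hosts, and 879, 957 and 10.3 in knockout hosts. WT tumor 3 was the highest and knockout tumor 3 the lowest, a 968-fold range, and both groups held a high and a low tumor, so that they overlapped. The ratio of the highest to the lowest tumor was 289 within the WT group and 93.1 within the knockout group. The group means of 3939 ± 5284 and 615 ± 526 (SD, n = 3 tumors per group) differed by less than this spread (log2 fold change -2.03, SE 2.23, limma adjusted p = 0.914). The difference rested on single tumors, as the log2 fold change was 0.087 without knockout tumor 3, -0.27 without WT tumor 3 and -4.33 without WT tumor 1.

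Of the 11 secretory epithelium markers, 6 had the same extremes as *Wfdc2*, with WT tumor 3 the highest and WT tumor 1 and knockout tumor 3 the lowest, and 5 did not. The 6 were *Pax8*, *Epcam*, *Cdh1*, *Cldn3*, *Muc1* and *Sox17*, and the 5 were *Ovgp1*, *Krt7*, *Cldn4*, *Elf3* and *Ehf*. Lactoferrin (*Ltf*), an iron-binding antimicrobial protein of neutrophil granules and of the reproductive tract epithelium, was at 227, 3967 and 52176 in WT hosts and at 3718, 3910 and 31.6 in knockout hosts, the same order of the 6 tumors as in *Wfdc2*. The polymeric immunoglobulin receptor gene *Pigr*, whose product carries IgA across epithelium, was at 10.6, 332 and 9321 in WT tumors and at 247, 161 and 24.6 in knockout tumors. *Spint2*, a Kunitz type inhibitor of epithelial serine proteases, was at 515, 1619 and 8109 in WT tumors and at 2751, 2585 and 606 in knockout tumors. WT tumor 3 was the highest in these 3 genes and WT tumor 1 and knockout tumor 3 were the lowest, as in *Wfdc2*. *Epcam*, the epithelial adhesion molecule, was at 90.5, 959 and 8047 in WT tumors and at 1307, 1063 and 201 in knockout tumors. Among the 5 with other extremes, *Ovgp1* had its highest values in knockout tumors 1 and 2, *Ehf*, a transcription factor of epithelium, was lowest in WT tumor 2 at 609, and *Krt7*, an epithelial keratin, had its next highest value after WT tumor 3 in WT tumor 1, at 2099. *Ltf*, *Pigr* and *Spint2* were picked after their values were seen, none of the genes named here was called, and the part of epithelial tissue in the *Wfdc2* values was not tested.

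**Figure D2:**
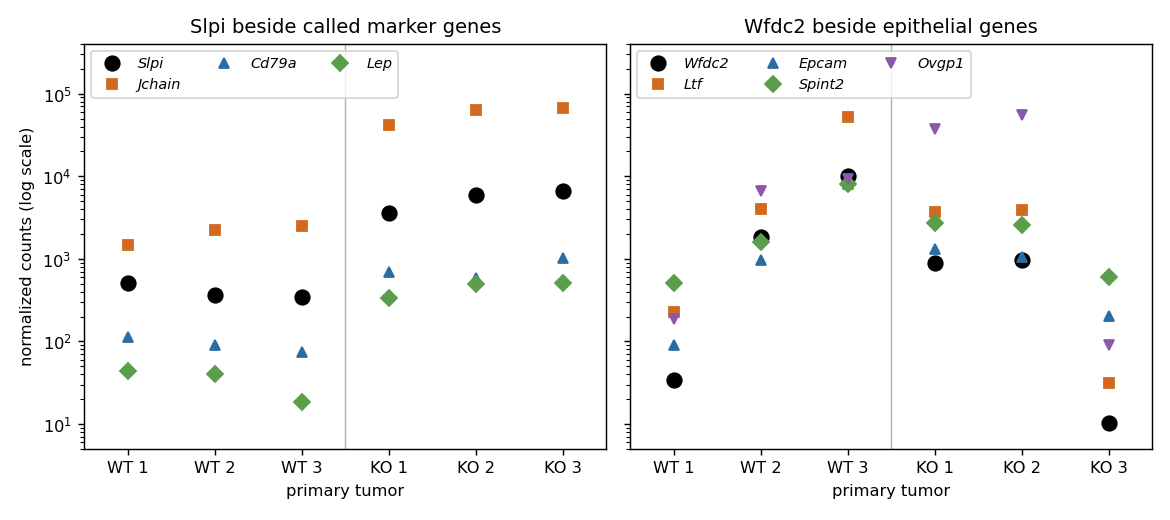
Normalized counts on a log axis in each primary tumor (WT 1 to 3 left of the gray line, KO 1 to 3 right of it), 1 point per gene and tumor. Left, *Slpi* (black) with *Jchain*, *Cd79a* and *Lep*, where every KO tumor lies above every WT tumor. *Jchain*, *Cd79a* and *Lep* were picked as called genes, and other markers of their lists, such as *Sdc1*, *Cr2* and *Adipoq*, had overlapping groups. Right, *Wfdc2* (black) with *Ltf*, *Epcam*, *Spint2* and *Ovgp1*, where *Wfdc2* is highest in WT 3 (9951) and lowest in KO 3 (10.3).

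The genes most alike to each of the pair over the 6 tumors were taken by Pearson's r on log2 values, among 14343 genes with a mean log2 value of at least 5. For *Slpi* these were *Cysltr2* (r = 0.997), *Apol6* (r = 0.996), *Ighv1-72* (r = 0.994), *Ell2* (r = 0.992) and *H2-Eb2* (r = 0.991). The 6 tumors form 2 levels in each of these 5 genes, which alone gives a high r, and only *Ighv1-72* was among the called genes. *H2-Eb2*, an MHC class II gene, was at 45.4, 46.9 and 44.6 in WT tumors and at 247, 261 and 329 in knockout tumors. *Apol6*, of the apolipoprotein L family, was at 68.4, 66.9 and 67.3 in WT tumors and at 228, 289 and 329.7 in knockout tumors. For *Wfdc2* they were *Zfp52* (r = 0.996), *Cldn23* (r = 0.994), *P2rx6* (r = 0.993), *Cpn1* (r = 0.991) and *Trim13* (r = 0.990), of which 0 were called. *Cldn23*, a claudin of epithelial junctions, was at 2.84, 99.0 and 956 in WT tumors and at 111, 98.2 and 0 in knockout tumors. These r values describe 6 libraries and are the extremes of many genes.

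The 3 members on chromosome 11 (GRCm38, 83703991 to 83752642) each had overlapping groups. *Wfdc21* had the lowest p of the family. Its normalized counts were 64.5, 193 and 62.3 in WT hosts and 134, 859 and 279 in knockout hosts. WT tumor 2 stood above knockout tumor 1, so the groups overlapped, and the log2 fold change of 1.78 (SE 0.72) had an unadjusted p of 0.0381 and an adjusted p of 0.825 in limma. Its log2 fold change was 1.07 without knockout tumor 2 and 2.40 without knockout tumor 1. *Wfdc17* was at 517, 732 and 559.8 in WT tumors and at 312, 1306 and 374 in knockout tumors, with the highest and the lowest value both in knockout tumors (log2 fold change -0.16, SE 0.51). *Wfdc18* was at 36.6, 47.7 and 217 in WT tumors and at 287, 399.5 and 5.53 in knockout tumors (log2 fold change 0.30, SE 1.48). Knockout tumor 2 was the highest tumor in all 3 of these genes, and it was also the highest in the summed macrophage markers, with 136443 normalized counts against 43375 to 97515 in the other tumors. It was the highest as well in the sums of white adipocyte, secretory epithelium, ciliated epithelium and mast cell markers, at 161362, 64176, 6670 and 6000. Knockout tumor 3 had the next highest macrophage sum, at 97515. It was also next highest in *Wfdc21*, but it was the lowest in *Wfdc18* and below all WT tumors in *Wfdc17*. The part of these cell types in the values was not tested.

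*Wfdc1*, on chromosome 8 (119666365 to 119688222), encodes a secreted protein described in stroma and was the most even member. It was at 1148, 2377 and 1345 in WT hosts and at 1337, 1832 and 1786 in knockout hosts. Its means of 1623 ± 660.2 and 1652 ± 274 (SD, n = 3 per group) differed by a log2 fold change of 0.08 (SE 0.30, limma adjusted p = 0.975), with WT tumor 2 the highest and WT tumor 1 the lowest of all 6.

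The other 9 members of the chromosome 2 cluster were low, with no value above 232. *Wfdc6a* was the most even of them, at 120.5, 128 and 62.2 in WT hosts and 49.9, 156 and 79.3 in knockout hosts. *Wfdc15b* was listed at 0, 68.8 and 232 in WT tumors and at 65.7, 119 and 9.82 in knockout tumors, and *Wfdc10* at 14.03, 20.6 and 150.0 in WT tumors and 67.7, 7.85 and 2.21 in knockout tumors. *Wfdc3* ranged from 17.6 to 30.5 in WT tumors and from 4.71 to 22.8 in knockout tumors. WT tumor 3 was the highest of the 6 tumors in *Wfdc15b* and *Wfdc10*, as in *Wfdc2*. *Wfdc8* reached 28.2 and *Wfdc16* 48.6 in WT tumor 3 and did not exceed 2.08 in the other tumors. *Wfdc6b*, *Wfdc12* and *Wfdc13* did not exceed 12.3, 8.30 and 5.08 in any tumor. *Wfdc12*, *Wfdc13*, *Wfdc15b*, *Wfdc16* and *Wfdc8* were listed at 0 in at least 1 tumor. Over all 14 *Wfdc* genes, WT tumor 3 was the highest tumor in 6, knockout tumor 2 in 4, WT tumor 2 in 3 and WT tumor 1 in 1. *Wfdc6b* overlaps *Wfdc8*, *Wfdc10* overlaps *Wfdc9*, *Wfdc12* overlaps *A730032A03Rik* and *Wfdc1* overlaps *Gm32352* in the annotation, so reads of these pairs may have been shared.

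Summed over the 14 *Wfdc* genes, the normalized counts were 1967, 5445 and 12686 in WT hosts and 3165, 5665 and 2558 in knockout hosts, and the groups overlapped. *Slpi* made up 20.7%, 6.31% and 2.61% of the normalized counts of the 15 genes in WT hosts and 53.3%, 51.4% and 72.4% in knockout hosts. *Wfdc2* made up 1.39%, 31.5% and 76.4% in WT tumors and 13.0%, 8.21% and 0.111% in knockout tumors. To compare levels between genes, values were divided by the median length of the annotated transcripts. On this scale of normalized counts per kb, *Slpi* was the highest of the 15 genes in each knockout tumor, at 5289, 8781 and 9853, and stood at ranks 3, 4 and 4 in WT hosts, at 755, 538 and 499. *Wfdc2* was the highest in WT tumors 2 and 3, at 3281 and 17833 per kb, and *Wfdc1* in WT tumor 1, at 1002 per kb. In knockout tumor 3, *Wfdc2* was at 18.4 per kb and stood at rank 7.

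Serine proteases of neutrophils and mast cells, a list of 11 that includes known targets of SLPI, were described next. None was called, against 0.102% of all genes called higher. *Ctsg* passed the filter on low values only through the knockout tumors, so its higher values there were fixed by the filter. The other 10 had a higher fitted mean in knockout tumors, and 1 of them, *Mcpt2*, had groups that did not overlap, beside 10.5% of all genes. The median log2 fold change, *Ctsg* included, was 1.07 beside -0.03 over all genes. Mast cell proteases led the list. *Mcpt2* was at 185, 143 and 70.1 in WT hosts and at 232, 1473 and 223 in knockout hosts (log2 fold change 1.78, SE 0.74, limma adjusted p = 0.827). *Tpsb2*, a mast cell tryptase, was at 405, 459 and 533 in WT tumors and at 509, 1773 and 894 in knockout tumors, and *Cma1*, a chymase, was at 229, 294 and 256 in WT tumors and at 293, 964 and 576 in knockout tumors. In both genes the groups overlapped and knockout tumor 2 was the highest. The targets studied most for SLPI were close to the limit of detection, as cathepsin G (*Ctsg*) was listed at 0 in the 3 WT tumors and at 8.62, 3.60 and 1.804 in knockout tumors, and neutrophil elastase (*Elane*) reached 17.1 in knockout tumor 1 and 0 to 4.92 in the others. The sum over the list was 5588 in knockout tumor 2 and 1107 to 2221 in the other tumors.

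Other families of protease inhibitors held no called gene, where 0.102% of all genes were called higher and 0% lower, so that lists of this size would seldom hold any. Of 43 serpins, 21 had a higher and 22 a lower fitted mean in knockout tumors (median log2 fold change -0.06), and the groups did not overlap in 7, beside 10.5% of all genes, with *Serpina3c*, *Serpina3f*, *Serpina3g* and *Serpina3m* higher and *Serpina3h*, *Serpinb1a* and *Serpinb9b* lower. *Serpina3c* had the largest fold of these, at 96.5, 114 and 53.7 in WT tumors and 352, 755 and 389.9 in knockout tumors (log2 fold change 2.47, SE 0.45, limma adjusted p = 0.216). The *Serpina3* genes are similar copies, so the division of reads between them is uncertain. The most abundant serpins were *Serpinh1*, the collagen chaperone, *Serpinb6a* and *Serping1*, the C1 inhibitor, with log2 fold changes of 0.42, -0.41 and 0.70 and overlapping groups. The other lists gave 0 called of 4 Kunitz type inhibitors (median log2 fold change -0.09), 0 of 11 cystatins and stefins (-0.17), 0 of 6 Kazal type inhibitors (-0.37), 0 of 6 tissue inhibitors of metalloproteinases and alpha macroglobulins (-0.18) and 0 of 3 other genes with a WAP domain (-0.20). Of the last, *Wfikkn2* was at 531, 535 and 535 in WT tumors and at 366, 354 and 768 in knockout tumors. *Eppin*, which lies in the same chromosome 2 cluster, did not exceed 24.4 in any tumor. Among the cystatins and stefins *Stfa3* was listed at 0 in the WT tumors and at 7.45, 1.95 and 17.6 in knockout tumors, and it passed the filter on low values only through the latter, which fixed its non-overlap.

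**Figure D3:**
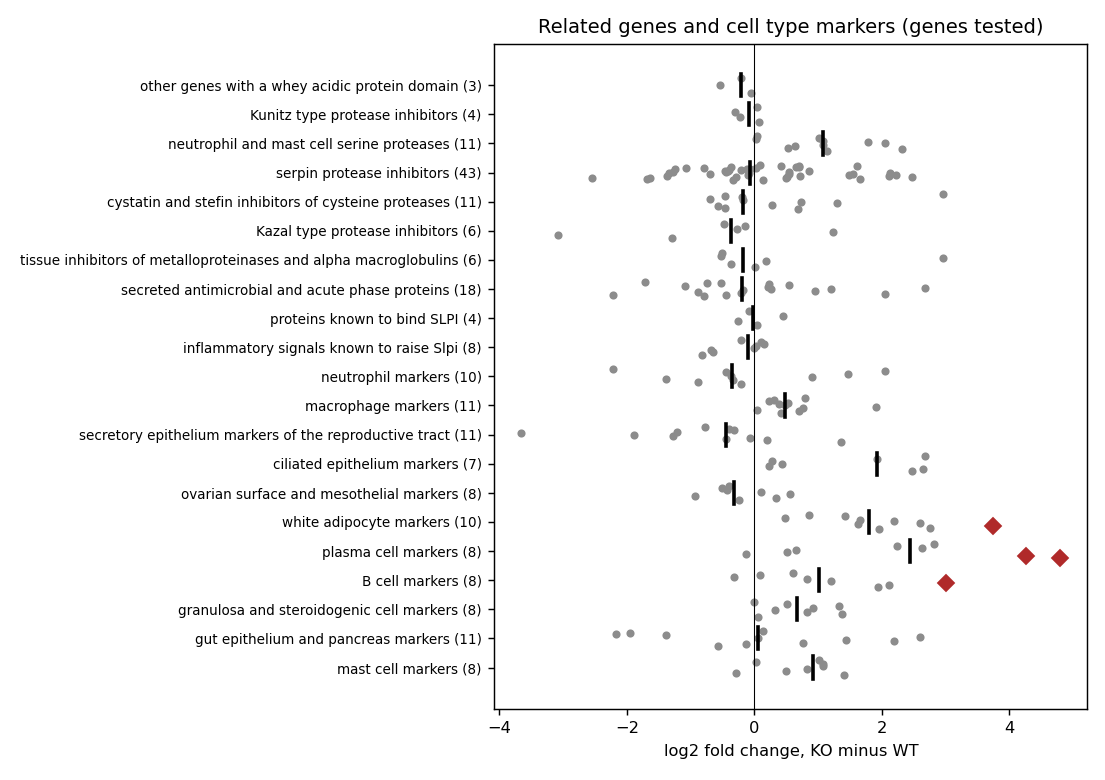
Log2 fold change (KO minus WT, horizontal axis) of each tested gene in 21 lists of related genes and cell type markers, with the number tested in parentheses, small vertical shifts that only separate the points, and black bars for list medians. Red diamonds mark the 4 called genes of these lists, *Lep* (3.74), *Jchain* (4.80), *Mzb1* (4.27) and *Cd79a* (3.01), and the gray points are genes not called.

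*Slpi* is also grouped with secreted antimicrobial and acute phase proteins, of which 0 of 18 were called, beside 0.102% of all genes called higher (median log2 fold change -0.20). *Lyz2*, *Hp* and *Ltf* were the most abundant, with overlapping groups. Groups that did not overlap were found in 1 of the 18, beside 10.5% of all genes. It was *Orm1*, an acute phase protein, at 22.6, 82.9 and 25.4 in WT tumors and 84.0, 519 and 308 in knockout tumors (log2 fold change 2.68, SE 0.78, limma adjusted p = 0.649), where knockout tumor 1 was just above WT tumor 2. *Lcn2*, an iron-scavenging antimicrobial protein, was at 718, 1119 and 17990.0 in WT tumors and at 2534, 1599 and 694 in knockout tumors. Of the genes of proteins known to bind SLPI, *Anxa2*, *Grn* (progranulin), *Plscr1* and *Plscr4*, 0 were called and all had overlapping groups (median log2 fold change -0.02). A list of 8 genes held inflammatory signals known to raise *Slpi* and genes of the NF-kB pathway, with the inhibitor gene *Nfkbia* among the latter. Of these 8, 0 were called (median -0.11), and the groups did not overlap in 1, *Tnf*, beside 10.5% of all genes. *Rela*, *Nfkb1* and *Nfkbia*, genes of the NF-kB pathway, had log2 fold changes of 0.11, 0.16 and -0.20, and *Tnf* was at 61.4, 64.5 and 60.8 in WT tumors and at 30.3, 44.1 and 45.3 in knockout tumors, lower in each knockout tumor without being called (adjusted p = 0.896 from limma).

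Markers of cell types that the tumors could hold were set beside its values. Over all genes tested, 0.102% were called higher and 0% lower, and the groups did not overlap in 10.5%. These shares are the background for each list below. Neutrophil markers had 0 of 10 called, with a median log2 fold change of -0.35, and groups that did not overlap in 1, *Csf3r*. Their sum was 725, 4584 and 52659 in WT tumors and 4204, 5100.0 and 885 in knockout tumors, of which *Ltf* was the most abundant gene, and without *Ltf* the sums were 498, 616 and 484 in WT tumors and 486, 1189.8 and 853 in knockout tumors. Of the 10 neutrophil markers, *Ly6g*, *Camp* and *Ngp* were at 0 in some tumors, with *Ly6g* at 0 in WT tumor 1 and in knockout tumor 3. *Camp* and *Ngp* were highest in knockout tumor 2, at 64.9 and 118, and the other markers of the list were above 0 in every tumor. Macrophage markers had 0 of 11 called, beside 0.102% of all genes called higher, and a median of 0.48. The groups did not overlap in 1 of these markers, *Cd163*, beside 10.5% of all genes. Their sum, led by *Lyz2*, was 88361, 66479 and 43589 in WT tumors and 43375, 136443 and 97515 in knockout tumors, so that the groups overlapped, with knockout tumor 1 and WT tumor 3 the lowest. The secretory epithelium markers, with 0 of 11 called and a median of -0.44, had overlapping sums, given above, with the lowest in knockout tumor 3. The groups did not overlap in 1 of them, *Cldn4*, beside the same 10.5%. *Cldn4* was at 665, 198 and 1881 in WT tumors and 68.2, 71.6 and 23.7 in knockout tumors (log2 fold change -3.66, limma adjusted p = 0.406). Ciliated epithelium markers had 0 of 7 called (median 1.93) and summed to 1513, 3483 and 1712 in WT tumors and 4562, 6669.95 and 1606 in knockout tumors. Of the ovarian surface and mesothelial markers 0 of 8 were called (median -0.32), and *Upk1b*, *Krt8* and *Krt19* had groups that did not overlap, beside 10.5% of all genes, and were lower in knockout tumors. Fitted means were higher in knockout tumors in all 11 macrophage and all 7 ciliated epithelium markers. They were higher in 3 of 10 neutrophil, 2 of 11 secretory epithelium and 3 of 8 ovarian surface and mesothelial markers, and lower in the rest. The part of these cell types in the *Slpi* difference was not tested.

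Among plasma cell, B cell and white adipocyte markers, 4 genes rose past the limits, where 0.102% of all genes were called higher. Of 8 plasma cell markers 2 rose past the limits, *Jchain*, the joining chain of polymeric IgA and IgM, and *Mzb1*, a chaperone of antibody-secreting cells, and the groups did not overlap in 7, against 10.5% of all genes (median log2 fold change 2.44). *Jchain* was at 1461, 2231 and 2511 in WT tumors and at 42273, 62782 and 67245 in knockout tumors (log2 fold change 4.80, SE 0.29, limma adjusted p = 9.89e-04). The plasma cell sum was 15741, 17689.6 and 12874 in WT tumors and 59559, 82167 and 86368 in knockout tumors, and the groups did not overlap. *Jchain* alone made up most of each knockout sum, so the size of this difference rests largely on 1 gene. *Xbp1* and *Sdc1*, the next most abundant of the list, had log2 fold changes of 0.51 and -0.13. Of 8 B cell markers 1 rose past the limits, *Cd79a*, part of the B cell receptor, and the groups did not overlap in 5, beside the same 10.5% (median 1.01). The B cell sums were 428 to 709.5 in WT tumors and 1446, 1356 and 2129.9 in knockout tumors. Of 10 white adipocyte markers 1 rose past the limits, *Lep*, at 43.5, 40.7 and 18.2 in WT tumors and 334, 494 and 512 in knockout tumors, and the groups did not overlap in 4, again beside 10.5% (median 1.80). The adipocyte sum, led by *Lpl*, was 40257, 54032 and 30163 in WT tumors and 43772, 161362 and 93521 in knockout tumors. The groups overlapped in this sum, as knockout tumor 1 lay below WT tumor 2. When each tumor was left out in turn, *Jchain* was called every time and *Mzb1* every time except without WT tumor 2, while *Cd79a* and *Lep* were not called in any of these fits. Fitted means were higher in knockout tumors in 7 of 8 plasma cell, 7 of 8 B cell and all 10 white adipocyte markers. The part of plasma cells, B cells and adipocytes in the *Slpi* difference was not tested. The remaining lists had 0 called, with medians of 0.91 over 8 mast cell markers, 0.68 over 8 granulosa and steroidogenic markers tested and 0.05 over 11 gut and pancreas markers tested. Beside 10.5% of all genes, the groups did not overlap in *Cpa3* of the mast cell list and *Inhbb* of the granulosa list. The same held for *Prss2* and *Cpa1* of the gut and pancreas list, and all of these were higher in knockout tumors.

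The neighborhood of *Slpi* was then described by position. The table holds 20 genes between the first and the last member of the cluster, of which 19 were tested. Apart from *Slpi*, which was selected for its difference, these were the 10 *Wfdc* genes, with 0 called, and 8 other genes, *Eppin* among them, with 0 called and a median log2 fold change of -0.01. Over all genes 0.102% were called higher and 0% lower, so sets of this size would seldom hold any. The nearest gene of another family on the lower side was *Svs5*, a seminal vesicle protein gene, at 2.47, 0 and 1.78 in WT tumors and 12.4, 3.66 and 10.4 in knockout tumors, values that rest on a few reads (log2 fold change 2.07, SE 0.83, limma adjusted p = 0.819). On the other side, *Matn4*, also on the minus strand, was at 10.04, 15.6 and 21.4 in WT tumors and 6.83, 12.0 and 17.7 in knockout tumors (log2 fold change -0.37, SE 0.68). *Sdc4*, a cell surface proteoglycan and an abundant gene of the cluster, had a log2 fold change of -0.38 (SE 0.30) with overlapping groups. Of these 8 other genes the groups did not overlap in 25%, against 10.5% of all genes, namely in *Svs5* and in *Gm20458*, which was at 287, 309 and 251 in WT tumors and 104, 140.3 and 131 in knockout tumors.

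From the start of *Tgm2* to 500 kb past the cluster, a stretch of 7130 kb, 80 of 82 genes were tested. Leaving out *Tgm2*, *Slpi* and the *Wfdc* genes, 68 genes were tested and 0 were called, beside 0.102% of all genes called higher. The median log2 fold change of the 68 was 0.05. The groups did not overlap in 16.2% of them, 6 genes higher and 5 lower in knockout tumors, beside 10.5% of all genes. These 11 included *Mmp9*, *Ada* and *Top1*, named after their values were seen.

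**Figure D4:**
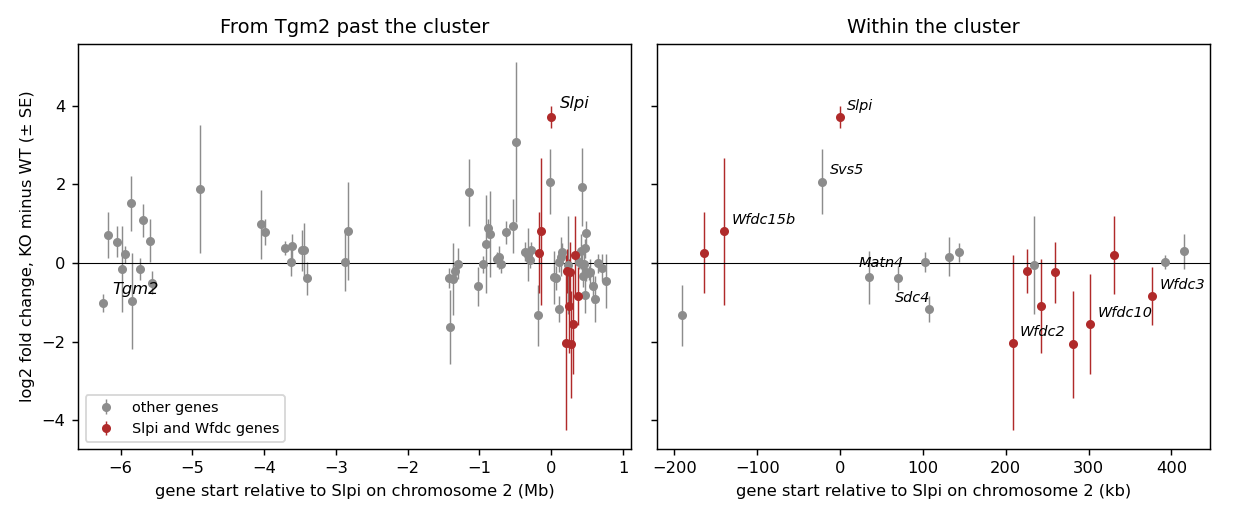
Log2 fold change (KO minus WT, points with bars of ± 1 SE from limma) of tested genes by the position of their start relative to *Slpi* on chromosome 2, from *Tgm2* past the cluster in Mb (left) and within the cluster in kb (right). *Slpi* and the *Wfdc* genes are red and other genes gray; *Slpi* lies at 3.71, its neighbors *Svs5* and *Matn4* at 2.07 and -0.37 and *Wfdc2* at -2.03.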

How the data were processed

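RNA of 3 WT and 3 *Tgm2* knockout primary tumors was compared, with tumors grouped by their genotype labels and each column matched to its tumor by library name. The authors quantified paired reads with kallisto 0.46.2 (GRCm38, per the labels), mapped transcripts to genes with biomaRt, filtered out low genes and scaled the rest with estimateSizeFactors of DESeq2. The deposited table is labelled TPM, but what the authors deposited is a signal in units of normalized counts, since column sums differ and exceed the fixed total of TPM. The test had been written for TPM on a log2 scale and was kept, so no count model was fitted.

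Values were converted to log2(value + 1), which understates the changes of low genes. Genes with at least 1 in at least 3 tumors were fitted with limma 3.58.1 in R 4.3.3 (1 contrast, no covariate, variance trend, two-sided, Benjamini-Hochberg over 19667 genes), called at adjusted p under 0.05 and absolute log2 fold change over 1. An exact permutation test over these 6 tumors has a smallest p of 0.1, so none was used. Tables were made in Python 3.11.15, and the fit was tested on simulated data. Positions are from GENCODE M21 (GRCm38), matched by symbol for 94.8% of genes, and promoter windows from RefSeq. The library strand is not given in the sources used here.

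The genes, the 21 lists and the tests were chosen with earlier results of these data known. Named are all members, *Tgm2*, the called genes of each list or up to 3 of its most abundant, the neighbors of *Slpi* and the 5 genes most alike to *Slpi* and *Wfdc2*; others are marked or were named because their groups did not overlap, after their values were seen. Alternatives changed the pseudocount, filter, scaling, variance trend and replicate block, and left out each tumor in turn.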

Additional observations from a re-analysis of the deposited data

How the results depend on the processing

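*Slpi* kept a log2 fold change of 3.69 to 3.71 in the alternatives that kept all tumors and 3.53 to 3.98 when 1 tumor was left out. No *Wfdc* gene was called under any alternative, and no other gene of the chromosome 2 stretch was either. The alternatives called at most 20 genes higher over the whole table, beside 0.102% of genes in the main fit. Sets of this size would therefore seldom hold any. The number of genes called higher, 20, fell to 5 with the replicate number as a block and to 4 without the variance trend, of which 5 and 3 were among the 20. Without 1 tumor it ranged from 2 (without WT tumor 2) to 15 (without knockout tumor 3), with 7 without WT tumor 1, 13 without WT tumor 3 or knockout tumor 1, and 11 without knockout tumor 2, and the number called lower ranged from 0 to 1. The number of called genes in the related lists, 4, became 3 with a pseudocount of 5, where *Lep* was lost. It became 2 with quantile normalization and 2 with the replicate block, where *Cd79a* and *Lep* were lost. It was 1 (*Jchain*) without the variance trend. Without 1 tumor it was 1 to 3, the 3 being *Jchain*, *Mzb1* and the ciliated marker *Dnah5*, which was not among the 4. Several *Wfdc* genes changed sign. *Wfdc12* moved from 0.26 to -0.070 with a pseudocount of 5. Without 1 tumor the log2 fold changes ranged from -0.13 to 0.40 for *Wfdc1*, -4.33 to 0.087 for *Wfdc2*, -0.64 to 0.17 for *Wfdc6a*, -0.77 to 0.30 for *Wfdc6b*, -2.17 to 0.26 for *Wfdc8*, -0.27 to 1.33 for *Wfdc12*, -0.40 to 0.91 for *Wfdc13*, -1.53 to 2.40 for *Wfdc15b*, -0.80 to 0.23 for *Wfdc17* and -0.77 to 2.20 for *Wfdc18*. The cause was not tested. The deviations of same-numbered tumors from their group means correlated at -0.20, 0.28 and -0.31. WT tumors 1 and 3 correlated best with knockout tumors 3 and 1, and WT tumor 2 with knockout tumor 2. With 3 tumors per group these values cannot decide whether the replicate number paired the tumors. With the filter at 10, *Wfdc6b*, *Wfdc8*, *Wfdc12*, *Wfdc13* and *Wfdc16* were not tested.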
